A study of Homo sapiens with 15 samples.

Results

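The HOX genes of the 4 human HOX clusters were described across 15 RNA-seq libraries of HT1080 cells, a human fibrosarcoma line. Members were chosen by name: every gene of the deposited count table called HOXA, HOXB, HOXC or HOXD followed only by digits, which gave 39 of 60675 genes. Of these, 30 passed the filter on low counts (19535 genes passed in all), and only those could be tested. The 9 that did not pass were HOXA7, HOXA11, HOXB1, HOXC11, HOXC12, HOXD1, HOXD3, HOXD4 and HOXD12.

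HOX genes encode homeodomain transcription factors that give cells along the body axis and the limbs their positional identity. They lie in 4 clusters in which gene order follows the order of use along the axis: low paralog numbers act anteriorly, high numbers posteriorly. Cells of mesenchymal origin keep a HOX profile in culture. Trithorax complexes maintain active HOX genes, Polycomb complexes keep silent ones closed, retinoic acid opens the anterior end, and TALE proteins (PBX, MEIS) bind DNA together with HOX proteins.

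The study set genetic inactivation of a lysine deacetylase (KDAC, also HDAC) beside chemical inhibition of the same enzyme. Each of the 5 groups held 3 libraries. The methods describe them as biological replicates. Edited HT1080 lines, each carrying a missense change in an endogenous gene, were treated for 2 days: 6CD1m (HDAC6 H216A, first catalytic domain) and 6CD2m (HDAC6 H611A, second catalytic domain) with 1 μM Tubastatin A, an HDAC6 inhibitor, and 8CDm (HDAC8 H143A) with 5 μM PCI-34051, an HDAC8 inhibitor. WT HT1080 cells were treated for 14 days with 1 μM Tubastatin A or 5 μM PCI-34051, the inhibitor being replenished through culture. Every group therefore received an inhibitor, and untreated cells were not analysed here. Line and duration change together between each mutant line and WT, so they cannot be told apart, and each mutation is represented by a single line.

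Libraries held 10932437 to 19983699 gene counts (median 17551869). The mesenchymal markers VIM (2809 to 4887 CPM, the count scaled by library size) and COL6A3 (2503 to 7358 CPM) were high in all libraries, whereas EPCAM, KRT5 and PTPRC, which mark epithelial and blood cells, had medians of 0 CPM. Because the edited lines carry missense changes, transcript level does not check their labels: mean HDAC6 was 13.1 CPM in 6CD1m, 24.4 in 6CD2m and 25.7 in WT on Tubastatin A. In each group replicate 1 was the library farthest from the other 2, and in 3 groups the distance was large. By chi-square per gene between libraries, replicate 1 of 6CD1m lay at 23.1 and 39.9 from the others, which lay 6.79 apart. For WT on PCI-34051 the values were 43.1 and 28.2 against 4.87, and for WT on Tubastatin A 15.5 and 23.3 against 4.58. In 6CD2m and 8CDm no pair of libraries exceeded 9.86. The 6CD1m replicate 1 was also the shallowest library. The whole 6CD1m group, at 10932437 to 14068212 counts, was shallower than every library of the other groups (lowest 15213257). In the comparisons that hold one of the 3 distant replicate 1 libraries, counts of calls that moved without it are given both ways.

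HT1080 cells expressed HOX genes of all 4 clusters, led by HOXB9, a gene known for thoracic and mammary patterning. On the scale of CPM per kilobase of exon, averaged over all libraries, HOXB9 stood at 28.1, followed by HOXA9 at 7.38, HOXB2 at 7.10, HOXB6 at 6.63 and HOXD10 at 4.92. The lowest gene that passed the filter was HOXA3 at 0.195, and HOXC12, with a single count in 1 library, was the lowest of all. The HOXB cluster (chr17:48528526-48729178, GRCh38) supplied 55.7% of the summed HOX CPM, HOXA (chr7:27092993-27200106) 19.6%, HOXD (chr2:176092891-176190907) 12.5% and HOXC (chr12:53938765-54056030) 12.1%. The filter left 9 of 11 HOXA genes, 9 of 10 HOXB genes, 7 of 9 HOXC genes and 5 of 9 HOXD genes, and in HOXD none of paralog groups 1 to 4 passed.

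**Figure D1:**
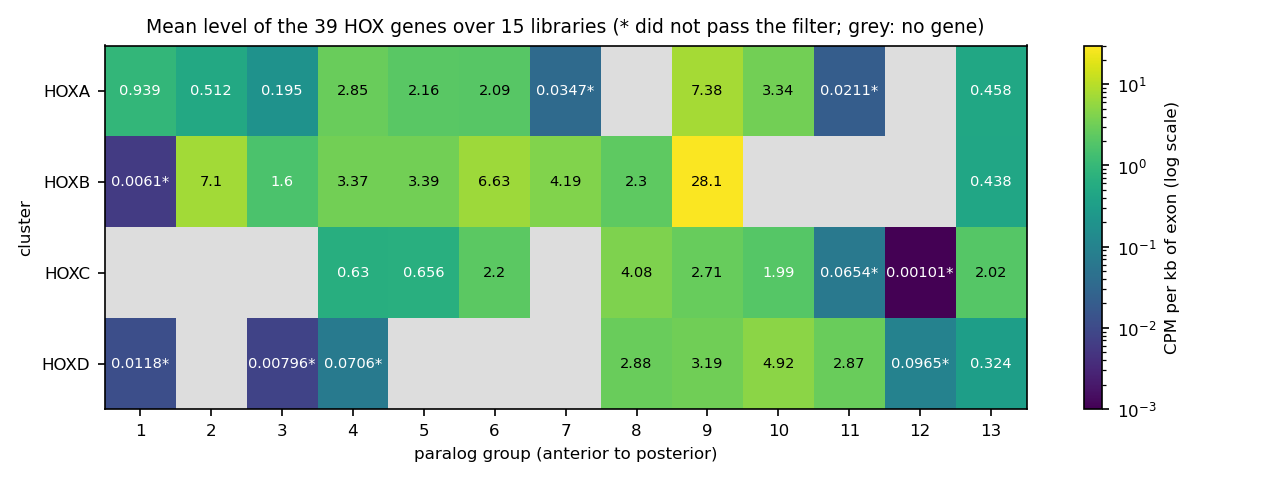
Mean level of each of the 39 HOX genes (CPM per kilobase of exon over 15 libraries, colour on a log scale), with clusters as lines of the grid and paralog groups 1 to 13 as columns; grey cells hold no gene and an asterisk marks genes that did not pass the filter. HOXB9 is highest at 28.1, and the HOXD genes of groups 1 to 4 are all below the filter.

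The summed HOX level ran from 239 to 333 CPM over the 15 libraries, with means of 247 ± 7.1 CPM in 6CD2m, 252 ± 12.0 in WT on Tubastatin A, 271 ± 2.55 in 8CDm, 282 ± 45.3 in 6CD1m and 298 ± 17.8 in WT on PCI-34051 (SD, n = 3 each). The 6CD1m libraries gave 333, 266 and 246 CPM, and without replicate 1 their mean was 256 CPM, below that of 8CDm. The make-up of the sum also differed. HOXA genes together gave 73.1 to 74.9 CPM in WT on PCI-34051, above every library of the other groups (40.6 to 57.2 CPM). HOXD genes together gave 19.24 to 22.50 CPM in 6CD2m, below every library of the other groups (29.1 to 50.2 CPM). HOXB9 alone made up 34.5 to 36.8% of the HOX CPM in 6CD2m and 30.5 to 34.7% in 8CDm, against 17.6 to 25.4% in the 9 libraries of the other groups. No test was made on these sums. In bulk libraries, fewer cells that express a gene and less RNA per cell cannot be told apart.

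Across the 5 groups, 9 of the 30 tested HOX genes differed somewhere at a false discovery rate of 0.001, the threshold of the study (30%, where 24.6% of all genes tested did so; edgeR's quasi-likelihood test, with p adjusted over all genes by the Benjamini-Hochberg procedure). They were HOXA4, HOXA5, HOXA6, HOXA9, HOXB2, HOXB9, HOXB13, HOXD10 and HOXD11. No HOXC gene was among them. In the 6 pairwise comparisons, 8 genes passed at least once, HOXA4 being the one that did not, and 22 passed in none. HOX genes thus changed at about the rate of genes at large, and the account below turns on these 8.

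**Figure D2:**
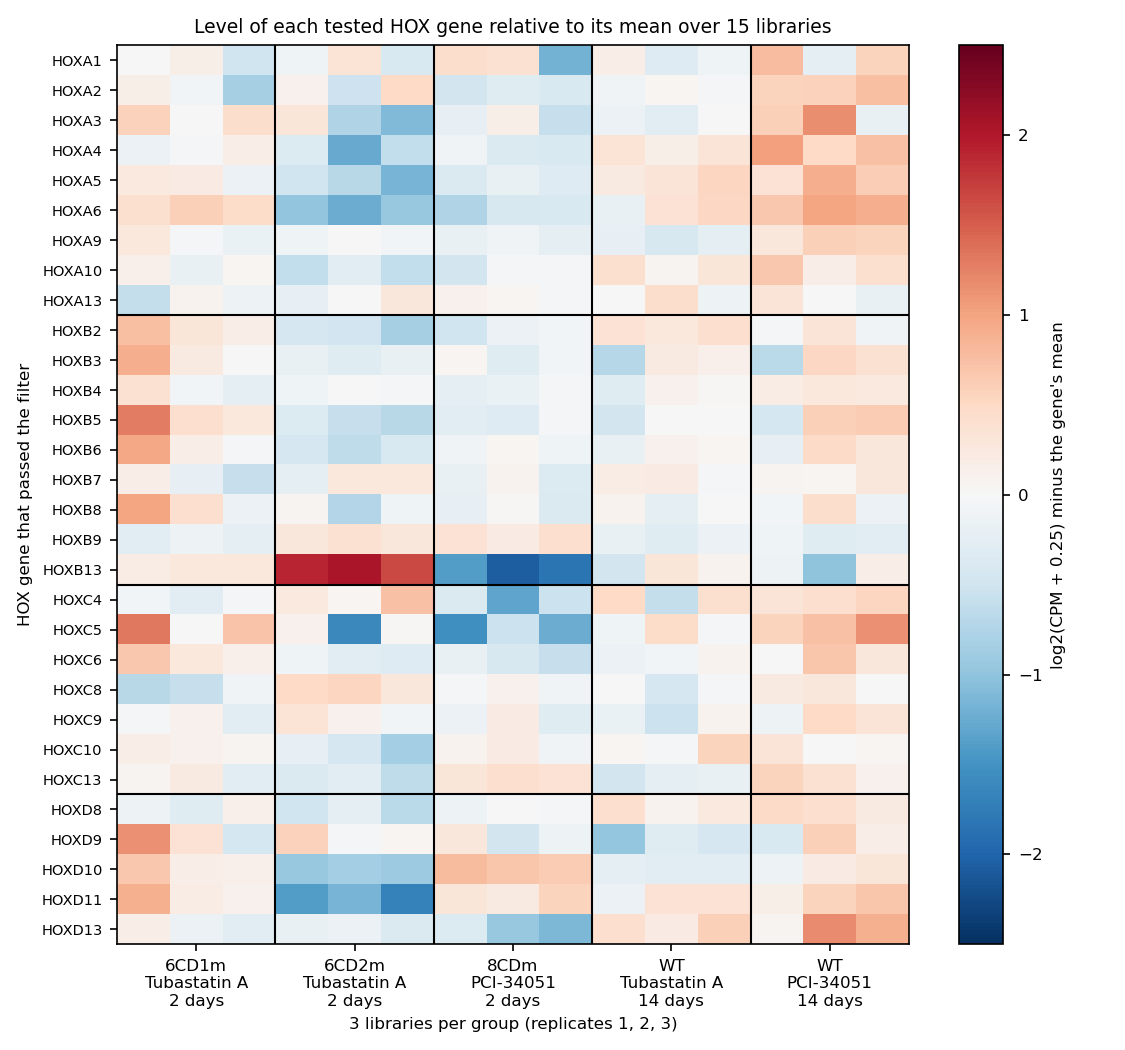
Level of each of the 30 tested HOX genes in each of the 15 libraries, as log2(CPM + 0.25) minus the gene's mean over all libraries (red above, blue below), ordered by cluster and paralog group. HOXB13 is red in 6CD2m and blue in 8CDm, HOXD10 and HOXD11 are blue in 6CD2m, and HOXA2 to HOXA6 are mostly red in WT on PCI-34051.

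HOXB9 (ENSG00000170689, chr17:48621159-48626356, minus strand) separated 6CD2m and 8CDm from the other 3 groups. It was 86.4, 93.0 and 87.1 CPM in 6CD2m, 91.4, 81.9 and 94.9 CPM in 8CDm, 58.5, 64.9 and 60.4 CPM in 6CD1m, 62.1, 57.6 and 64.4 CPM in WT on Tubastatin A and 66.3, 57.6 and 59.6 CPM in WT on PCI-34051. No library of 6CD2m or 8CDm overlapped with any library of the other groups. The mean rose from 61.4 ± 3.48 CPM in WT on Tubastatin A to 88.8 ± 3.64 CPM in 6CD2m (SD, n = 3; log2 fold change 0.53, SE 0.09, edgeR adjusted p = 0.000276). In 8CDm it rose from 61.2 ± 4.54 CPM in WT on PCI-34051 to 89.4 ± 6.70 CPM (log2 fold change 0.55, SE 0.09, edgeR adjusted p = 0.000269). Between 6CD1m and 6CD2m it was lower in 6CD1m (log2 fold change -0.54, SE 0.09, edgeR adjusted p = 0.000279). The difference between 6CD2m and 8CDm was -0.01 with an SE of 0.09 on the log2 scale.

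HOXB13 (ENSG00000159184, chr17:48724763-48729178, minus strand), the most posterior gene of its cluster and a known partner of the androgen receptor in prostate, took its extremes in the same pair of lines, but on opposite sides. Its level was 4.50, 4.96 and 3.73 CPM in 6CD2m and 0.228, 0.0542 and 0.107 CPM in 8CDm. The other groups lay between: 1.18, 1.26 and 1.25 CPM in 6CD1m, 0.663, 1.297 and 1.098 CPM in WT on Tubastatin A, and 0.907, 0.379 and 1.16 CPM in WT on PCI-34051. Neither 6CD2m nor 8CDm overlapped with any other group. The rounded counts behind the 8CDm values were 4, 1 and 2, so its ratios were also computed on summed counts with exact 95% intervals that cover counting error only. HOXB13 values were not whole numbers in 5 libraries, so some of its reads may have been divided with another gene. No sum over sharing genes was computed for it. The ratio of 6CD2m (241 counts) to 8CDm (7 counts) was 34.4 after scaling for depth, with an interval of 16.5 to 86.6 (fitted log2 fold change 5.02, SE 0.47, edgeR adjusted p = 1.2e-06). HOXB13 rose in 6CD2m over WT on Tubastatin A (log2 fold change 2.11, SE 0.36, edgeR adjusted p = 0.000388). In 8CDm against WT on PCI-34051 the value was -2.60 (SE 0.53), whose edgeR adjusted p of 0.00144 missed the threshold, and in 6CD1m against 6CD2m it was -1.83 (SE 0.36, edgeR adjusted p = 0.00114).

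HOXB2 (ENSG00000173917, chr17:48540894-48544989, minus strand), a gene of hindbrain patterning, was the one anterior gene that passed a pairwise test. It stood at 11.8, 11.3 and 8.84 CPM in 6CD2m, 26.86, 19.65 and 17.99 CPM in 6CD1m, 20.6, 19.1 and 21.3 CPM in WT on Tubastatin A, 11.3, 14.5 and 15.2 CPM in 8CDm and 15.36, 20.10 and 15.01 CPM in WT on PCI-34051. The 6CD2m libraries lay below both other groups treated with Tubastatin A and overlapped with 8CDm. HOXB2 was higher in 6CD1m than in 6CD2m (log2 fold change 1.01, SE 0.18, edgeR adjusted p = 0.000411) and lower in 6CD2m than in WT on Tubastatin A (log2 fold change -0.93, SE 0.18, edgeR adjusted p = 0.00078).

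HOXD10 and HOXD11, neighbours at the posterior end of the HOXD cluster that pattern the limb, were lowest in 6CD2m. The counting program shares reads between them, as their annotated spans overlap by 965 bases on the same strand. Both were read on the plus strand: HOXD11 (ENSG00000128713) lies at chr2:176104216-176109754 and HOXD10 (ENSG00000128710) at chr2:176108790-176119942. RefSeq promoter windows (build GRCh38.p14, from upstream of a start to shortly after it) are shown for these 2 genes because they moved together, and for HOXA6 because it passed the test in 3 comparisons, as HOXD11 did; HOXB9 also passed in 3, and its window is not shown. CpG dinucleotides are in capitals. The HOXD11 window is chr2:176107030-176107329 on the plus strand, the HOXD10 window chr2:176116528-176116827 on the plus strand and the HOXA6 window chr7:27147725-27148024 on the minus strand.
HOXD11: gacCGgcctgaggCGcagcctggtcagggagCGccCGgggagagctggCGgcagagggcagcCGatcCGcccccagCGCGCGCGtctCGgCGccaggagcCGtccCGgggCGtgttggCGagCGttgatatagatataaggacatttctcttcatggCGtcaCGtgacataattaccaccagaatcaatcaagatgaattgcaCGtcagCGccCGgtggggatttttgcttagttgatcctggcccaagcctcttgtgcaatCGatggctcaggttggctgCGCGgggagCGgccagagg
HOXD10: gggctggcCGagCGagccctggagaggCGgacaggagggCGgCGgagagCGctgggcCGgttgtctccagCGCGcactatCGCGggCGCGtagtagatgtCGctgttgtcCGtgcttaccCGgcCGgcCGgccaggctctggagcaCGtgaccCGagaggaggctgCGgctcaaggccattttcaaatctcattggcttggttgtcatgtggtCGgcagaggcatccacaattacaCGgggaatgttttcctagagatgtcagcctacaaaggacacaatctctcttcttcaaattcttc
HOXA6: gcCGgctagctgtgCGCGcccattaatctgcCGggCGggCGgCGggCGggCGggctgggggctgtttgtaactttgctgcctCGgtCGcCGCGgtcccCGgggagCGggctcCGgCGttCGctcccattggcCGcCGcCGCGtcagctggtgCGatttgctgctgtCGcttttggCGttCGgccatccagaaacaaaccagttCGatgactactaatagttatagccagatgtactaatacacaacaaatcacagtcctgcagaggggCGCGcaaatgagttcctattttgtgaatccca
The 3 windows hold 27, 23 and 29 CpG dinucleotides, above the median of 14 over 35116 RefSeq promoter windows and around the median of 22 over the 27 windows that matched 20 HOX genes. Searched on both strands, with matches allowed to share bases, GGGCGG (a GC box) occurs 1 time in the HOXD11 window, 1 time in the HOXD10 window and 4 times in the HOXA6 window, and is present in 45.0% of all windows. CCAAT occurs in the HOXD10 and HOXA6 windows (34.6% of all), TATAAA in none of the 3 (11.5% of all) and TGATTNAT, a letter pattern that HOX and PBX proteins can bind jointly, in the HOXD11 window (2.8% of all). These are descriptions of letters, not of bound sites.

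HOXD10 was 6.28, 6.74 and 6.40 CPM in 6CD2m and 21.4, 20.1 and 19.3 CPM in 8CDm. It was 19.7, 13.8 and 13.5 CPM in 6CD1m, 10.3, 10.2 and 10.2 CPM in WT on Tubastatin A, and 11.20, 14.22 and 15.20 CPM in WT on PCI-34051. The 6CD2m libraries were the 3 lowest of the 15, and 8CDm overlapped only with the range of 6CD1m, through replicate 1 of that line. HOXD10 was lower in 6CD2m than in 8CDm (log2 fold change -1.64, SE 0.15, edgeR adjusted p = 1.13e-06) and higher in 6CD1m than in 6CD2m (log2 fold change 1.27, SE 0.16, edgeR adjusted p = 1.82e-05). Against WT on Tubastatin A the 6CD2m value was -0.66 (SE 0.16, edgeR adjusted p = 0.00418), past a false discovery rate of 0.05 but not of 0.001. In 8CDm against WT on PCI-34051 it was 0.58 (SE 0.15, edgeR adjusted p = 0.00661), which did not pass 0.001 either.

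HOXD11 was 1.894, 2.280 and 1.502 CPM in 6CD2m, 6.72, 6.39 and 8.11 CPM in 8CDm and 10.2, 6.18 and 5.86 CPM in 6CD1m. In WT it was 4.864, 7.002 and 6.990 CPM on Tubastatin A and 5.97, 8.03 and 8.89 CPM on PCI-34051. Only 6CD2m stood apart: its highest library was below the lowest of all others, whose groups overlapped with each other. HOXD11 was lower in 6CD2m than in 8CDm (log2 fold change -1.89, SE 0.26, edgeR adjusted p = 5.54e-05), than in WT on Tubastatin A (-1.72, SE 0.26, edgeR adjusted p = 0.000126) and than in 6CD1m, for which 6CD1m over 6CD2m gave 1.95 (SE 0.26, edgeR adjusted p = 4.4e-05). Summing the reads of HOXD10 and HOXD11 before the test, which removes any effect of sharing between the pair, gave -1.71 against 8CDm (edgeR adjusted p = 1.73e-06), -0.98 against WT on Tubastatin A (0.000338) and 1.46 for 6CD1m over 6CD2m (9.87e-06). The same sum gave 0.37 in 8CDm against WT on PCI-34051 (edgeR adjusted p = 0.0811), less than the value for HOXD10 alone.

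Among HOXA genes, HOXA6 (ENSG00000106006, chr7:27145396-27150603, minus strand), a central gene active along the trunk, was low in both 6CD2m and 8CDm. It was 1.07, 0.861 and 1.11 CPM in 6CD2m and 1.31, 1.73 and 1.77 CPM in 8CDm. It was 3.199, 3.720 and 3.346 CPM in 6CD1m, 2.05, 3.11 and 3.52 CPM in WT on Tubastatin A, and 3.95, 4.93 and 4.64 CPM in WT on PCI-34051. The 6 libraries of 6CD2m and 8CDm were the lowest of the 15, at 17 to 33 counts each. HOXA6 was lower in 6CD2m than in WT on Tubastatin A (log2 fold change -1.51, SE 0.25, edgeR adjusted p = 0.000299), lower in 8CDm than in WT on PCI-34051 (-1.48, SE 0.24, edgeR adjusted p = 0.000246) and higher in 6CD1m than in 6CD2m (1.75, SE 0.25, edgeR adjusted p = 8.52e-05). Its reads are shared with HOXA7 and the antisense gene HOXA-AS3, and with all 3 summed the values were -1.58, -1.51 and 1.74, each past the threshold.

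HOXA5 (ENSG00000106004, chr7:27141052-27143668, minus strand), which acts in lung and axial development, was 2.37, 2.03 and 1.39 CPM in 6CD2m and 4.04, 4.34 and 5.14 CPM in WT on Tubastatin A. The remaining groups were 4.125, 4.001 and 3.067 CPM in 6CD1m, 2.62, 2.98 and 2.68 CPM in 8CDm and 4.48, 6.64 and 5.41 CPM in WT on PCI-34051. As for HOXA6, the 6 libraries of 6CD2m and 8CDm were the lowest. HOXA5 was lower in 6CD2m than in WT on Tubastatin A (log2 fold change -1.22, SE 0.23, edgeR adjusted p = 0.000827), whereas 8CDm against WT on PCI-34051 gave -0.99 with an edgeR adjusted p of 0.00309.

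HOXA9 (ENSG00000078399, chr7:27162435-27175180, minus strand), known from blood stem cells and leukaemia, differed by its level in WT on PCI-34051. There it was 26.8, 33.1 and 32.4 CPM, against 19.19, 20.70 and 18.79 CPM in 8CDm, 19.1, 16.6 and 18.8 CPM in WT on Tubastatin A, 20.3, 21.6 and 20.9 CPM in 6CD2m and 26.3, 21.2 and 19.4 CPM in 6CD1m. All 3 libraries of WT on PCI-34051 were above the other 12. HOXA9 was lower in 8CDm than in WT on PCI-34051 (log2 fold change -0.65, SE 0.12, edgeR adjusted p = 0.000774). Its span overlaps that of HOXA10 by 4590 bases, and the sum of HOXA9, HOXA10 and HOXA10-AS gave -0.66 (edgeR adjusted p = 0.000772).

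**Figure D3:**
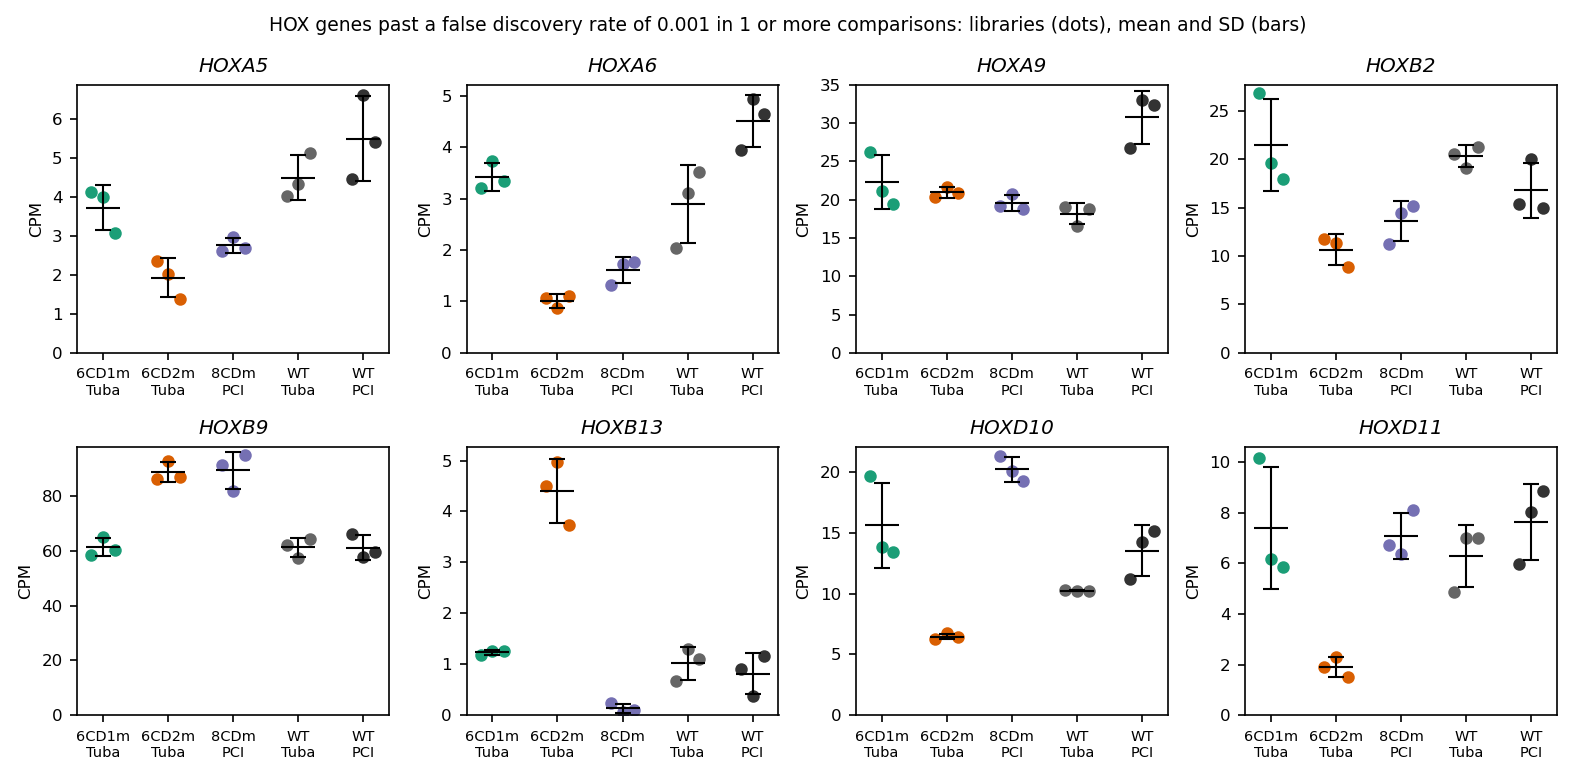
CPM of the 8 HOX genes that passed a false discovery rate of 0.001 in at least 1 of the 6 pairwise comparisons; dots are the 3 libraries of a group, the long bar is the mean and the whiskers the SD, and each panel's axis starts at 0. HOXD11 libraries of 6CD2m (1.502 to 2.280 CPM) lie below all others, and HOXB9 libraries of 6CD2m and 8CDm (81.9 to 94.9 CPM) lie above all others.

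In 6CD2m against WT on Tubastatin A, where both groups received Tubastatin A and line and duration differ, HOX genes moved in both directions. The posterior HOXB genes rose, HOXB13 by 4.32-fold and HOXB9 by 1.45-fold, while HOXD11 was 3.30-fold, HOXA6 2.84-fold, HOXA5 2.33-fold and HOXB2 1.91-fold lower. Of the 30 genes, 2 were called higher and 4 lower, 20% together against 11.8% of all genes tested (4.61% higher and 7.22% lower). At a false discovery rate of 0.05 the count was 12, against 32.8% of all genes tested. The median log2 fold change over the 30 was -0.20, against -0.01 over all genes, with 9 above 0 and 21 below. Libraries of the groups did not overlap for 16 of the 30, where 50% of all genes tested did not. Under upper-quartile scaling and with DESeq2 size factors the split was 2 higher and 2 lower. The count fell whichever library of these groups was left out. It was 0 without 6CD2m replicate 3, 1 without 6CD2m replicate 1 or 2 or WT on Tubastatin A replicate 2, 2 without replicate 3 and 3 without replicate 1 of that WT group. Such fits have fewer libraries in a group and so less power for every gene. The shares of all genes called in them are not given here.

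In 8CDm against WT on PCI-34051, HOX values were mostly lower in the mutant line. HOXA6 was 2.79-fold and HOXA9 1.57-fold lower, and HOXB9 was 1.46-fold higher, which made 3 calls among 30, or 10% against 11% of all genes tested (4.69% higher and 6.27% lower). Below the threshold of 0.001 the direction was one-sided: 27 of 30 log2 fold changes were negative, with a median of -0.40 against -0.04 over all genes, and 12 of the 14 genes that passed a false discovery rate of 0.05 were lower (36.1% of all genes passed it). All 9 tested HOXA genes had negative values, with a median of -0.99. Among genes named here after their values were seen, HOXD13, a gene of the digits, gave -2.19 (edgeR adjusted p = 0.00196), HOXC5 -2.44 (0.00561; 3, 11 and 5 counts in 8CDm) and HOXA4 -1.10 (0.00176). HOXD13 too had few counts in 8CDm, 3 to 8 per library. The HOXC5 values were divided with other genes in all 15 libraries. The sum over the genes that share them gave -0.69 (edgeR adjusted p = 0.00281). The HOXA4 reads summed with HOXA-AS2 and a further overlapping gene gave -1.13, past the threshold with an edgeR adjusted p of 0.000574. Groups did not overlap for 15 genes, 13 of them lower in 8CDm, where 48.1% of all genes tested did not overlap. The count of calls was 0 without 8CDm replicate 1 or 3 or WT on PCI-34051 replicate 3. It was 1 without 8CDm replicate 2, namely HOXB9, and 1 without WT replicate 2, which was none of the 3 genes called above. Without WT replicate 1, which lay apart from its group, the count was 4. The shares of all genes called in these fits are not given here.

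Base composition moved with that shift. The tested HOX genes had a median GC content of 54.39% in their exons, against 48.47% for 13958 tested protein-coding genes, and across those genes Spearman's rho between GC content and log2 fold change was -0.454 in 8CDm against WT on PCI-34051 and -0.493 between the WT groups. With offsets that take each library's GC trend out, 24 of the 30 values were negative in 8CDm against WT on PCI-34051 and the median was -0.18, less than at first but still below 0. In the same fit the median for 6CD1m against 6CD2m went from 0.48 to 0.27. HOXA6 no longer passed in 8CDm under these offsets, while HOXA9 and HOXB9 did. In 6CD2m against WT on Tubastatin A the median went from -0.20 to -0.13 and in 6CD2m against 8CDm from -0.06 to -0.05, while in 6CD1m against WT on Tubastatin A it changed sign, from 0.10 to -0.02.

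**Figure D4:**
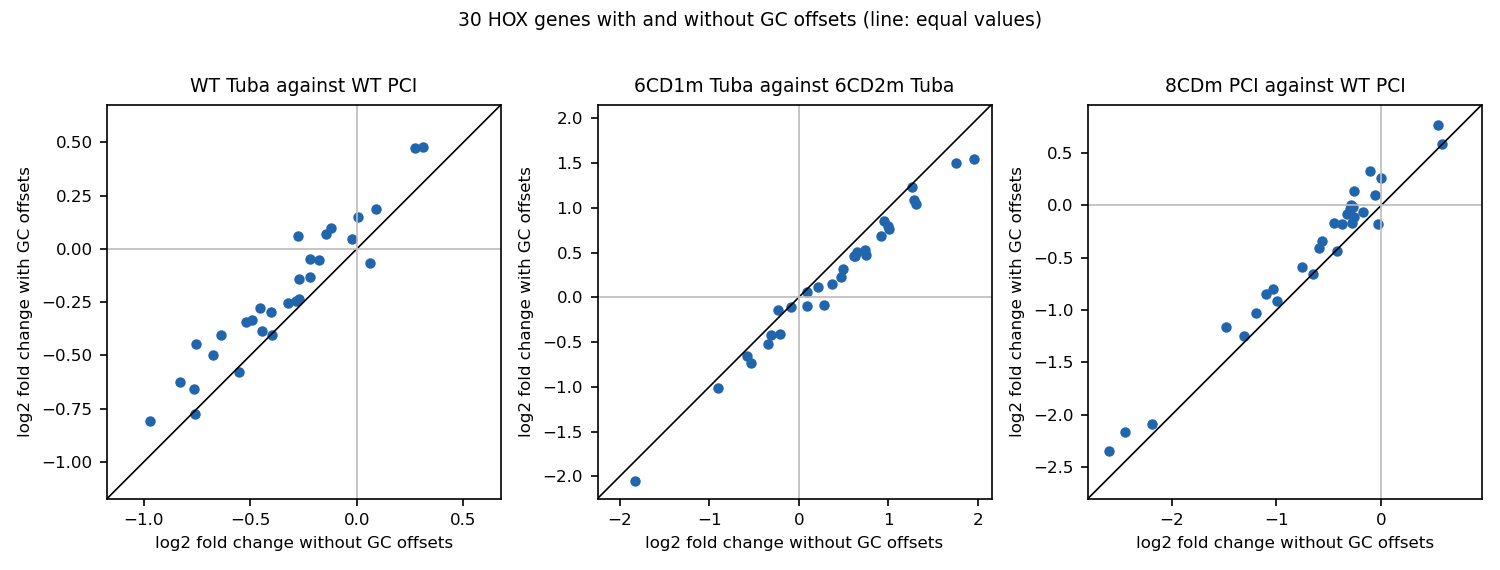
log2 fold changes of the 30 tested HOX genes without (horizontal) and with (vertical) GC offsets in 3 comparisons, with the diagonal marking equal values. In 8CDm against WT on PCI-34051 most points lie above the diagonal, and the number of negative values went from 27 to 24.

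In 6CD2m against 8CDm, where line and inhibitor differ but duration does not, HOXB13 was higher and HOXD10 and HOXD11 were lower in 6CD2m, by 3.12-fold and 3.72-fold for the HOXD pair. These 3 calls among 30 (10%) compare with 9.96% of all genes tested (5.6% higher and 4.37% lower). At a false discovery rate of 0.05 the count was 5, against 26.5% of all genes tested. They stayed past the threshold in every alternative that could be computed and without each of the 15 libraries in turn. The other values were balanced, with 12 above 0, 18 below and a median of -0.06 against -0.01 over all genes. Groups did not overlap for 12 genes, against 51.6% of all genes tested. HOXC11, HOXC12, HOXD3 and HOXD4, all below the filter, had no read at all in 8CDm. Named after their values were seen, HOXC11 (chr12:53973126-53977643) had 7, 15 and 10 counts in 6CD2m, and HOXD4 (chr2:176151222-176153226), a retinoic acid responsive gene, had 3, 16 and 5. Summed HOXC11 counts were 10 in 6CD1m, 8 in WT on Tubastatin A and 4 in WT on PCI-34051. For HOXD4 they were 0, 3 and 2 in those groups, so its absence was not particular to 8CDm. Set against a floor of 3 counts over the group, the 6CD2m level was 10.7-fold higher for HOXC11 and 8.00-fold for HOXD4. These ratios leave out the counting error in 6CD2m and are not lower bounds. Exact 95% intervals for counting error in 6CD2m were 0.401 to 0.827 CPM for HOXC11 and 0.282 to 0.654 CPM for HOXD4. In 8CDm the upper end was 0.0675 CPM for both. Tested without the filter, HOXC11 passed with an edgeR adjusted p of 0.000374, and HOXD4 did not (0.0114). Of the 24 HOXD4 counts, 16 came from 1 library.

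The difference between the 2 lines' distances from their own WT group was tested directly. For HOXB13 the value for 6CD2m minus that for 8CDm was 4.71 on the log2 scale (SE 0.64, edgeR adjusted p = 8.72e-05), and for HOXD10 it was -1.24 (SE 0.21, edgeR adjusted p = 0.000735). Of the 30 HOX genes, these 2 passed, where 5.16% of all genes tested did. HOXD11 gave -1.62 and missed the threshold (edgeR adjusted p = 0.00443), as did HOXA9 at 0.86 (0.00252). HOXB9 gave -0.01 (edgeR adjusted p = 0.957) and HOXA6 -0.03 (0.963). The values of HOXB9 and HOXA6 in both comparisons were thus close, though a p that misses the threshold does not show that they are equal. The test was chosen after the data were seen, and duration is part of both distances.

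The 6CD1m and 6CD2m groups share enzyme, inhibitor, dose and duration, but the domain mutated was not their only difference. Mean HDAC6 was 13.1 CPM in 6CD1m and 24.4 CPM in 6CD2m, without overlap between libraries. Every 6CD1m library was also shallower than every 6CD2m library. Across protein-coding genes log2 fold changes rose with GC content, and with GC offsets the HOX median was 0.27. Whether HDAC6 level or depth affects the HOX values was not tested. In 6CD1m against 6CD2m, 4 HOX genes were higher in 6CD1m. HOXD11 was 3.88-fold, HOXA6 3.37-fold, HOXD10 2.41-fold and HOXB2 2.01-fold higher, and HOXB9 was 1.45-fold lower. That is 5 of 30 genes (16.7%), against 13.2% of all genes tested, of which 6.54% were higher and 6.65% lower. At a false discovery rate of 0.05 it was 14 genes, against 40.3% of all genes tested. The median log2 fold change was 0.48, against 0.05 over all genes, with 21 values above 0 and 9 below, and the 5 HOXD genes were all above 0. Groups did not overlap for 17 genes, 13 of them higher in 6CD1m, where 51.7% of all genes tested did not overlap. HOXC8, a gene of the thoracic region that is named after its values were seen, was just short of the threshold at -0.90 (edgeR adjusted p = 0.00128). Without 6CD1m replicate 1, which lay apart from its group, the calls were HOXA6, HOXD10 and HOXD11, and the same 3 genes were called without any single 6CD2m library. With only the 6 libraries compared in the fit, none of the 5 genes passed. The 1 call there was HOXB13, which missed the threshold in the main fit.

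In 6CD1m against WT on Tubastatin A, by contrast, none of the 30 HOX genes was called, where 0.793% of all genes tested were (0.271% higher and 0.522% lower). HOXD10 came closest, with a log2 fold change of 0.61 and an edgeR adjusted p of 0.0248, and was the 1 gene past a false discovery rate of 0.05 (9.4% of all genes tested). A total of 6 genes had an unadjusted p below 0.05, but the share of all genes at that level was not taken, so no excess can be read. DESeq2 called 0. Values were spread on both sides, 17 above 0 and 13 below, with a median of 0.10 against -0.01 over all genes, and groups did not overlap for 6 genes (31% of all genes tested). Upper-quartile scaling, which moved the median of all genes by 0.11 here, gave a HOX median of 0.23. With GC offsets the direction turned, with 14 values above 0, 16 below and a median of -0.02, so no direction can be read. Both comparisons of a HDAC6 mutant line with WT used the same 3 WT libraries.

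Between the 2 inhibitors in WT cells, where only the compound and its dose differ, none of the 30 genes was called (0.42% of all genes tested were, 0.333% higher and 0.087% lower). Of them, 6 had an unadjusted p below 0.05. The share of all genes at that level was not taken, so no excess can be read from this count. At a false discovery rate of 0.05, 2 passed (9.48% of all genes tested). The doses were not matched, at 1 μM and 5 μM. HOXA9 was nearest, lower on Tubastatin A by 0.76 on the log2 scale, with an SE of 0.12 and an edgeR adjusted p of 0.00215. DESeq2 called 1 gene, and without replicate 1 of WT on PCI-34051 or replicate 1 of 6CD1m edgeR called HOXA9 too. HOXC13, known from hair and nail, was the other of these 2 and gave -0.68 (edgeR adjusted p = 0.0363). Of the 30 values 25 were negative, with a median of -0.30 against 0.01 over all genes, and with GC offsets 22 were negative with a median of -0.25. Groups did not overlap for 8 genes, all lower on Tubastatin A, where 25.9% of all genes tested did not overlap.

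**Figure D5:**
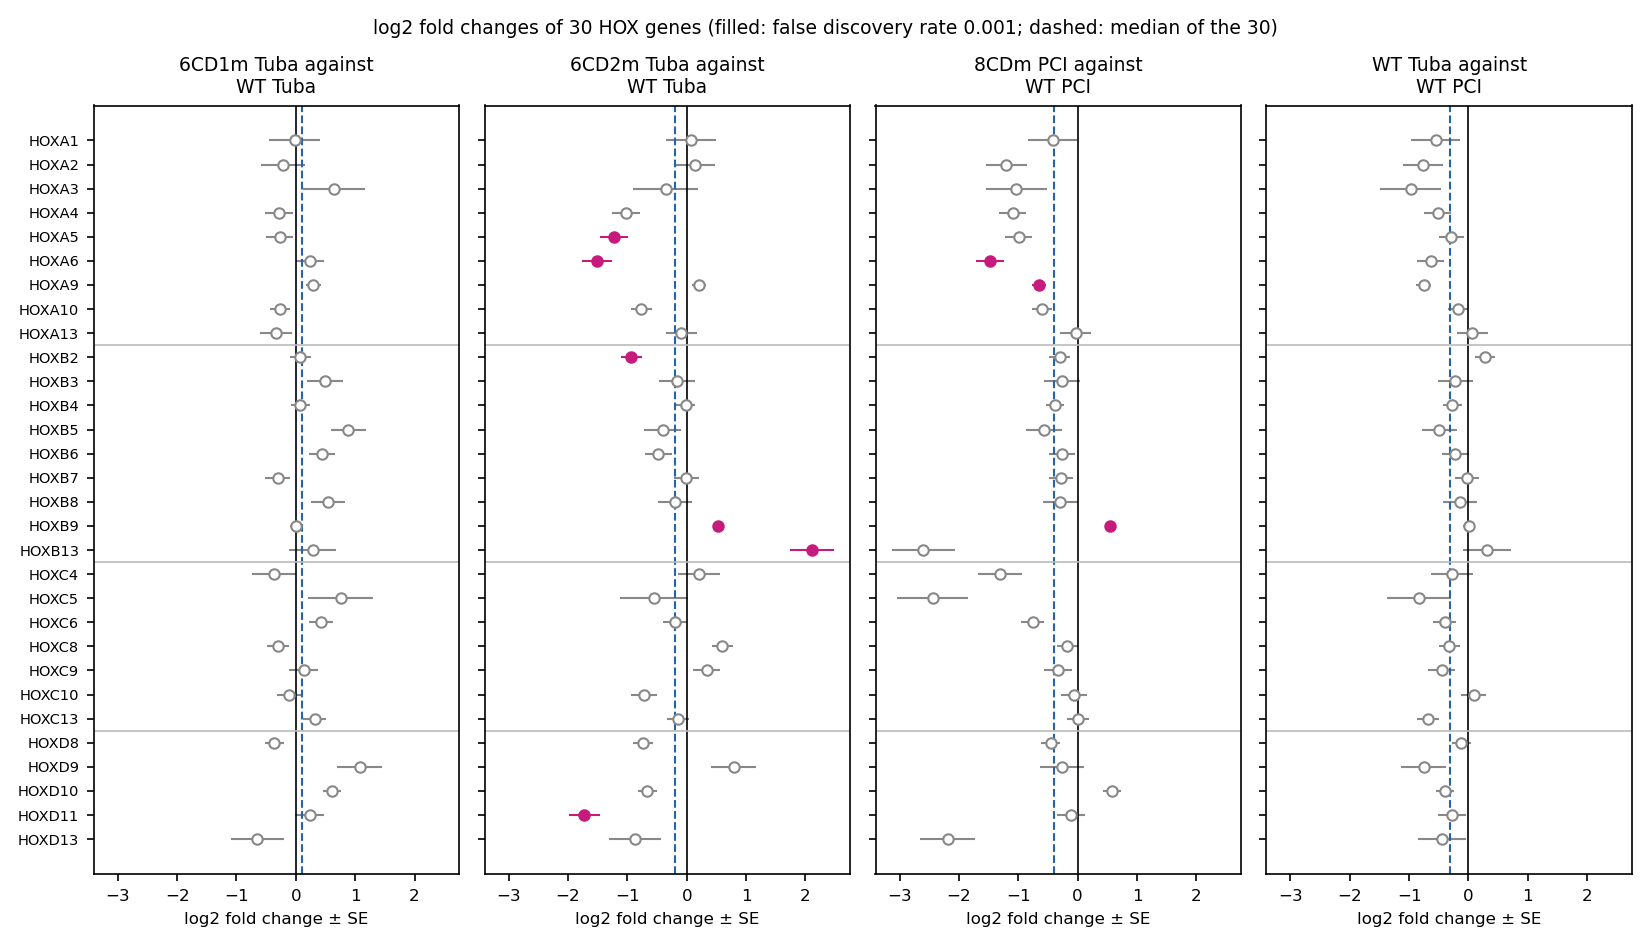
log2 fold change ± SE of the 30 tested HOX genes in 4 comparisons, on one scale; filled points passed a false discovery rate of 0.001 and the dashed line is the median of the 30. Filled points number 0 in 6CD1m, 6 in 6CD2m, 3 in 8CDm and 0 between the WT groups, and the medians are 0.10, -0.20, -0.40 and -0.30.

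Partners and regulators of HOX genes were read from lists of known function. Of the TALE cofactors, 7 of 9 were tested and only MEIS2 passed anywhere. It passed in 6CD2m against WT, 6CD2m against 8CDm and 6CD1m against 6CD2m. Of all genes tested, 11.8%, 9.96% and 13.2% passed in these comparisons, in that order. MEIS2 was 64.1 ± 1.43 CPM in 6CD2m against 34.0 ± 2.75 CPM in WT on Tubastatin A (log2 fold change 0.91, SE 0.09, edgeR adjusted p = 1.33e-06). It was also higher in 6CD2m than in 8CDm (0.88, edgeR adjusted p = 1.89e-06) and lower in 6CD1m than in 6CD2m (-0.61, edgeR adjusted p = 7.34e-05). MEIS2 took its highest level in the line with the highest HOXB13 and the lowest HOXD11. This rests on 1 line, and a link between these genes was not tested.

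Of 11 trithorax genes, all tested, 2 passed. They were 1 in 8CDm against WT (11% of all genes tested) and 1 in 6CD2m against 8CDm (9.96%). PSIP1, which tethers the MLL complex to chromatin, was higher in 8CDm than in WT on PCI-34051 by 0.72 on the log2 scale (edgeR adjusted p = 0.00025), and ASH1L, a histone methyltransferase, was lower in 6CD2m than in 8CDm (-0.77, edgeR adjusted p = 1.3e-05). Of 19 Polycomb genes, also all tested, the number that passed was 1 higher for WT on Tubastatin A against WT on PCI-34051, 4 higher for 6CD1m against 6CD2m, 3 lower for 6CD2m and 2 lower for 8CDm against their WT groups, 1 higher and 2 lower for 6CD2m against 8CDm, and 0 for 6CD1m against WT. These counts stand beside 0.42%, 13.2%, 11.8%, 11%, 9.96% and 0.793% of all genes tested in the same comparisons. EZH2, the methyltransferase of Polycomb complex PRC2, was 49.5 ± 1.60 CPM in 6CD2m and 18.6 ± 1.28 CPM in 8CDm (log2 fold change 1.41, SE 0.09, edgeR adjusted p = 2.85e-08). It was also higher in WT on Tubastatin A than on PCI-34051 (0.66, edgeR adjusted p = 0.000935). CBX6, a chromobox subunit of PRC1, was 113 ± 2.97 CPM in 6CD2m against 255 ± 26.3 CPM in WT on Tubastatin A (-1.17, edgeR adjusted p = 1.07e-06) and 253 ± 36.2 CPM in 6CD1m (1.15 for 6CD1m over 6CD2m, edgeR adjusted p = 1.35e-06). PHC2, another PRC1 subunit, was lower in 6CD2m (-0.61) and in 8CDm (-0.80) than in their WT groups.

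Of 16 genes of the retinoic acid axis, 11 were tested. Those that passed numbered 3 in 8CDm against WT (11% of all genes tested) and 2 in 6CD2m against 8CDm (9.96%). A single gene passed in 6CD2m against WT (11.8%) and in 6CD1m against WT (0.793%). ALDH1A3, an enzyme that makes retinoic acid, was lower than WT in all 3 mutant lines: 4.60 ± 0.276 CPM in 8CDm against 64.7 ± 10.3 CPM in WT on PCI-34051 (log2 fold change -3.81, SE 0.18, edgeR adjusted p = 1.3e-09), and 11.6 ± 3.24 CPM in 6CD1m and 19.4 ± 1.39 CPM in 6CD2m against 34.8 ± 3.51 CPM in WT on Tubastatin A (-1.58 and -0.84). In 8CDm the receptor gene RARB (-1.52, edgeR adjusted p = 2.84e-05) and RDH10 (-0.77, edgeR adjusted p = 0.000733), which oxidises retinol, were lower too. RARB and ALDH1A3 were higher in 6CD2m than in 8CDm. No member passed between the inhibitors in WT cells or between 6CD1m and 6CD2m.

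Noncoding genes within the HOX clusters were mostly low, and 12 of 23 were tested. HAGLR, a long noncoding RNA of the HOXD cluster, was higher than WT in 6CD2m (3.21 ± 0.553 against 0.823 ± 0.293 CPM, log2 fold change 1.95, edgeR adjusted p = 0.000358) and in 8CDm (1.61 ± 0.243 against 0.205 ± 0.105 CPM, 2.95, edgeR adjusted p = 7.68e-05). HAGLROS, on its opposite strand, was 0.836 ± 0.161 CPM in 6CD2m and at 0 in all 3 libraries of 8CDm (edgeR adjusted p = 0.000449). No other member passed, so 1 of 12 did in each of 6CD2m against WT, 8CDm against WT and 6CD2m against 8CDm. Of all genes tested, 11.8%, 11% and 9.96% passed in these comparisons, in that order. Whether counting used the strand was not given in the sources used here, so reads of genes on opposite strands cannot be told apart.

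Other transcription factors of limb and axis were read from a list of 20, of which 9 were tested. Those that passed numbered 3 in 6CD1m against 6CD2m (13.2% of all genes tested) and 3 in 6CD2m against WT (11.8%). In 8CDm against WT 4 passed (11%), and in 6CD2m against 8CDm 1 was higher and 2 were lower (9.96% in either direction). TWIST1, TBX3 and SHOX2, which act in limb mesenchyme, were higher in 6CD1m than in 6CD2m and lower in 6CD2m than in WT on Tubastatin A. SHOX2 was 8.75 ± 1.21 CPM in 6CD2m, 23.3 ± 3.59 CPM in 6CD1m and 20.8 ± 2.83 CPM in WT on Tubastatin A (log2 fold change 6CD2m over WT -1.24, SE 0.15, edgeR adjusted p = 1.59e-05). In 8CDm, PITX1, the hindlimb factor, was lower than in WT on PCI-34051 (14.0 ± 0.494 against 33.2 ± 3.79 CPM, -1.25, edgeR adjusted p = 1.9e-05), as were TBX3 (-1.25), TBX18 (-0.96) and TWIST1 (-0.81). Between 6CD2m and 8CDm, PRRX1 was higher in 6CD2m, at 0.851 ± 0.189 CPM against 0 in all 3 libraries of 8CDm, and TWIST1 (-0.87) and SHOX2 (-1.51) were lower. No member passed in 6CD1m against WT or between the inhibitors.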

How the data were processed

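RNA-seq was performed on rRNA-depleted total RNA of 15 libraries, 3 in each of 5 groups taken from the sample labels. The authors deposited 1 table of expected counts per gene for all libraries, with no other scaling. Per the labels' processing notes, the tools were Trimmomatic 0.39, Bowtie2 2.4.5, RSEM 1.3.3 and DESeq2 1.38.2 with build GRCh38; the annotation release and the strand setting were not given in the sources used here. RSEM divides reads that match several genes, and 21.8% of nonzero values were not whole numbers (tolerance 0.015), so values were rounded. Totals were 10932437 to 19983699 counts, which sets the precision of low genes; intervals and floors (3 counts) cover counting error only. Columns not used numbered 0.

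Genes passing filterByExpr (minimum count 10) were tested with edgeR 4.0.16 in R 4.3.3: TMM scaling, 1 mean per group over all 15 libraries, quasi-likelihood test, Benjamini-Hochberg adjustment over 19535 genes, false discovery rate 0.001 as in the study. CPM values are TMM-scaled. p-values measure the spread between these samples. The fit was tested on simulated data. Gene spans, exon lengths and GC content came from GENCODE 29 (GRCh38), which matched 57055 of 60675 genes; HOX promoters came from RefSeq. Values in every library were given for HOX genes past the threshold in at least 1 pairwise comparison with a group mean of at least 1 CPM, and other members by counts and ranges. Members and gene lists were chosen with earlier results of these data known.

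Alternatives were DESeq2 1.42.0, other scaling (upper quartile, DESeq2 size factors), no filter or at least 10 counts in every library, false discovery rate 0.05, only the libraries compared, GC offsets (loess span 0.5), a replicate block, and each library left out. Same-numbered libraries of the WT groups deviated together (correlations 0.505, 0.235 and 0.169), and the other comparisons showed no such pairing. Sums over genes that share reads and the test of the difference between lines were added after seeing the data.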

Additional observations from a re-analysis of the deposited data

Results flagged for a closer look

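Of the 30 tested HOX genes, 2 differed between mutant lines in their distance from WT cells given the same inhibitor, by a test of that difference itself. Of all genes tested, 5.16% did so, so HOX genes were near the rate of genes at large. HOXB13 had a difference of 4.71 on the log2 scale for 6CD2m minus 8CDm, and HOXD10 a difference of -1.24. HOXD11, which shares reads with HOXD10, had a larger value of -1.62 but missed the threshold (edgeR adjusted p = 0.00443). So did HOXA9 at 0.86 (0.00252). In 6CD2m HOXB13 was 4.40 ± 0.625 CPM against 1.02 ± 0.324 CPM in WT on Tubastatin A, and in 8CDm 0.130 ± 0.0890 CPM against 0.815 ± 0.398 CPM in WT on PCI-34051 (SD, n = 3 each). HOXD10 was 6.47 ± 0.240 CPM against 10.2 ± 0.0290 CPM, and 20.2 ± 1.05 CPM against 13.5 ± 2.09 CPM. Neither HOXD10 comparison with WT passed a false discovery rate of 0.001 on its own (edgeR adjusted p = 0.00418 in 6CD2m and 0.00661 in 8CDm). With the reads of HOXD11 added, the values were -0.98 (0.000338) and 0.37 (0.0811), and their difference was not tested. Line, inhibitor and duration cannot be told apart in these differences.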

How the results depend on the processing

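Over the 17 calls of a HOX gene in a comparison, 151 alternative values were computed: 120 stayed past the threshold, 31 did not, and 0 changed direction. Leaving out single libraries gave 255 values, of which 187 stayed past it and 0 changed direction. HOXD10, HOXD11 and HOXB13 in 6CD2m against 8CDm passed in all of these. Summing genes that share reads kept 9 of 9 calls. HOXB13 was in none of these sums, though its values were not whole numbers in 5 libraries. The least stable were HOXA5 and HOXB2 in 6CD2m against WT, and HOXA9 in 8CDm against WT. The cause of these changes was not tested.

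DESeq2 called 1 gene between the WT groups, 9 in 6CD1m against 6CD2m, 8 in 8CDm against WT and 16 among the 5 groups. In the same order DESeq2 called 3.61%, 21.9%, 19.7% and 44% of all genes tested. Without the filter on low counts the first 3 were 1, 9 and 6, and with at least 10 counts in every library 6CD2m against WT had 3. At a false discovery rate of 0.05 the counts were 2 between the WT groups, 14 in 6CD1m against 6CD2m, 1 in 6CD1m against WT, 12 in 6CD2m against WT, 14 in 8CDm against WT, 5 in 6CD2m against 8CDm and 20 among the groups. With only the libraries compared, 6CD1m against 6CD2m had 1 and 8CDm against WT 0. With GC offsets and the replicate block together, 8CDm against WT had 1 and the 5 groups 5.

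The replicate block left 3 calls in 6CD1m against 6CD2m, 2 in 6CD2m against WT and 1 in 8CDm against WT, where the numbers did not pair the libraries. Between the WT groups, where pairing held, the block changed no call (0).

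Leaving out 1 library gave 0 to 1 calls between the WT groups, 3 to 7 in 6CD1m against 6CD2m, 0 to 0 in 6CD1m against WT, 0 to 7 in 6CD2m against WT, 0 to 4 in 8CDm against WT, 3 to 3 in 6CD2m against 8CDm and 4 to 10 among the 5 groups. The 4 came without 6CD2m replicate 3. Each of these fits has fewer libraries in 1 group, and the shares of all genes called in them are not given here. Genes under about 1 CPM had few counts, and at this depth differences in the 9 untested HOX genes were mostly not detectable.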
